A study of Rattus norvegicus with 78 samples.

Results

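Grp, Cartpt, Lypd1, Slc30a3, Six3, Lef1, Tcf7l2, Prkcd and Nefm are 9 genes used, mostly in rodent brain, to tell amygdala, piriform cortex, striatum and thalamus apart. They were chosen by name, with earlier results of these data known. Their values were taken from the feature of the deposited array table whose RefSeq identifier belonged to the gene. A feature is 1 array measurement of a transcript, and 8 of the 9 genes had 1 feature each among 26419. No feature carried the name Tcf7l2, a thalamic transcription factor, which was not analysed here.

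The arrays came from male offspring of the selectively bred Low Responder rat line, a line bred for low locomotor activity in a new environment, which all groups share. Exposed rats were born to dams given paroxetine, an antidepressant that blocks serotonin reuptake, with their drinking water (10 mg per kg per day), and control rats to dams given plain water. Dosing of the dams began a week before conception and ran through gestation until weaning at postnatal day 21 (P21), so that rats taken at P75 had been off the drug since weaning. Amygdala and hippocampus were profiled at P7, P14, P21 and P75 on 78 single-colour NimbleGen arrays, 1 for each sample, which make 16 groups by treatment, region and age. Both exposed P7 groups had 4 arrays and the other groups 5. The labels give neither litters nor animals, so each p-value measures the spread between these arrays alone, which may be partly technical or shared by littermates.

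Tissue identity in the forebrain is carried by transcription factors, peptides and synaptic proteins that are restricted to certain cell groups. In a dissected block, the level of such a transcript depends both on the cells within the named region and on where the cut ran, since the amygdala borders the striatum above, the piriform cortex at its side and the hippocampus behind. Fewer cells of a type and less RNA per cell cannot be told apart in bulk tissue. GRP and CART peptides are released by neurons, ZnT3 (the product of Slc30a3) loads zinc into glutamatergic synaptic vesicles, and LYPD1 binds nicotinic acetylcholine receptors. SIX3 and LEF1 are transcription factors, of which LEF1 acts at the end of Wnt signalling. Protein kinase C delta (Prkcd) marks neurons of the central amygdala and thalamic relay nuclei in mice, and Nefm encodes the medium neurofilament subunit of axons.

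Arrays of a group correlated with each other at a Pearson r of 0.926 to 0.985 over all features. The 1 control probe of random sequence, which should match no rat transcript, read 42.9 to 57.2 intensity units over the 78 arrays and differed between exposed and control groups, by most in the hippocampus at P7, P21 and P75. The labels name no batch, so that any technical batch and the treatment cannot be told apart. As a check of the tissue labels, Nr3c2, the mineralocorticoid receptor that is enriched in hippocampus, was lower in control amygdala than in control hippocampus at P7, P14, P21 and P75, with log2 differences of -1.58, -1.33, -1.32 and -1.70, and Penk, the enkephalin precursor, was higher there, with differences of 3.50, 3.34, 4.16 and 3.37. A list of hippocampal markers, 4 of them measured with Nr3c2 among them, did not keep that direction. Its summed intensity was lower in control amygdala than in control hippocampus at P7 (2967 to 4266 against 6845 to 9307) and overlapped at P14. At P21 and P75 it was higher in control amygdala (6970 to 8014 against 3411 to 3879, and 6800 to 8366 against 4421 to 5466). In 2 hippocampal groups the arrays fell into sets. Exposed P7 replicates 1 and 2 and replicates 3 and 4 correlated at 0.957 to 0.973 within a set and at 0.945 to 0.947 between sets, and control P14 replicates 1 to 3 and 4 and 5 at 0.959 to 0.981 within and 0.947 to 0.966 between. For called exposure differences in the hippocampus at P7 and P14, values by set are given below. Age steps, regional differences, interaction terms, F tests and correlations that use these groups were not run by set. All tests below were moderated tests of limma on log2 intensity, with p-values adjusted by the Benjamini-Hochberg method over all 26419 features and called below 0.05.

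In control rats, Lypd1, Six3, Grp, Prkcd and Slc30a3 were higher in amygdala than in hippocampus at P7, P14, P21 and P75. Cartpt was higher in amygdala from P14 on. Lef1 was not: it was lower in amygdala than in hippocampus at P14 and P21. Between the regions, 6, 8, 8 and 7 of the 8 genes were called at P7, P14, P21 and P75, against 32.3%, 30.3%, 58.1% and 56% of all features. After quantile normalization of all arrays, only 4 of the 8 genes were called at P21. The median difference over the genes was 0.51, 1.12, 0.61 and 1.46 on the log2 scale, and over all features 0.03, 0.05, 0.12 and 0.16. The sources used here do not say whether the regions were normalized together, and levels set across regions carry that limit.

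Of the 8 genes, Lypd1 had the largest difference between the control regions at P75. It read 7198, 7599.8, 7997, 8089 and 7682 in control amygdala at that age, against 411, 505, 504, 592 and 748 in control hippocampus, a log2 difference of 3.83 ± 0.13 (SE; adjusted p = 1.51e-35). All 8 amygdala groups lay above all 8 hippocampal groups in Lypd1, and the amygdala group with the lowest mean, exposed at P7, spanned 3478 to 4075, against 1077 to 1440.2 in the hippocampal group with the highest mean, controls at P7. In Six3 all amygdala groups likewise lay above all hippocampal ones. Its level was 1858, 1529.8, 1981, 1632 and 1423 in control amygdala at P7, against 135, 98.1, 220.1, 127 and 93.8 in control hippocampus, a log2 difference of 3.70 ± 0.18 (adjusted p = 5.41e-27). The difference in Six3 was 2.43 ± 0.18 at P75. Grp differed by 1.70 ± 0.14 at P7 and by 2.44 ± 0.14 at P75, and Prkcd by 0.63 ± 0.17 and 1.23 ± 0.17.

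Slc30a3, which hippocampal mossy fibre terminals also use, was strongly detected in both regions and differed less, by 0.38 ± 0.12 at P7, 0.78 ± 0.12 at P14, 0.61 ± 0.12 at P21 and 0.48 ± 0.12 at P75. Cartpt differed by 0.07 ± 0.19 at P7 (adjusted p = 0.815), where the regions were not separated, and by 1.68 ± 0.19 at P75 (adjusted p = 1.97e-11). Lef1 read 895, 826, 914, 1066 and 927 in control amygdala at P21, against 1889, 1799, 1819.6, 1639 and 1966 in control hippocampus, with no overlap and a log2 difference of -0.98 ± 0.14 (adjusted p = 1.18e-08). Nefm was lower in control amygdala at P7 and P14, with differences of -0.75 and -0.32, and differed by 0.28 and 0.27 at P21 and P75, called in both but turned to -0.16 and -0.11 by quantile normalization of all arrays.

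With age, control amygdala gained Slc30a3, Cartpt, Grp and Lypd1. From P7 to P75, 4 of the 8 genes rose and 2 fell, against 13.8% and 11.6% of all features. Cartpt read 875, 799, 843, 1029 and 1102 at P75, against 337, 360.2, 512, 164 and 198 at P7, a log2 difference of 1.67 ± 0.19 (adjusted p = 8.97e-09). Its gain was already 1.71 at P14 against P7, a step that called 7.15% of all features, and the later steps were not called. Slc30a3 rose by 1.41 ± 0.13 over the same span, Grp by 0.88 ± 0.12 and Lypd1 by 0.87 ± 0.11, while Six3 and Nefm differed by -0.38 ± 0.12 and -0.32 ± 0.12 and were called lower.

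Control hippocampus shared only part of this course. From P7 to P75, 2 genes were called higher (Slc30a3 and Six3, by 1.31 ± 0.12 and 0.90 ± 0.22) and 2 lower (Lypd1 and Nefm, at -1.14 ± 0.16 and -1.33 ± 0.12), against 59.8% of all features called either way. Cartpt and Lef1 had passing highs in control hippocampus. Lef1, which dentate gyrus progenitors need in mice, was higher by 1.00 at P14 against P7 and differed by -0.92 at P75 against P21 (adjusted p = 2.82e-08 and 5.55e-06), steps that called 21.6% and 2.54% of all features. An F test of equal levels at all 4 ages in controls was called for 6 of the 8 genes in amygdala, all but Lef1 and Prkcd, and for 7 in hippocampus, all but Grp, against 33.4% and 69.2% of all features.

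In the amygdala, most of these genes were lower in exposed rats from P14 on. At P7, only Six3 was called, and it was lower, against 7.83% of all features called (5.66% higher and 2.17% lower). At P14, 7 of the 8 genes, all but Prkcd, were lower, against 19.3% of all features lower and 16.5% higher. At P21 again all but Prkcd were lower, against 16% of features lower and 9.45% higher, and at P75, 6 were lower, all but Prkcd and Nefm, against 11.8% lower and 9.35% higher. None of the 8 was called higher at any age. The genes were chosen with earlier results of these data known, and the authors' deposited tables list Grp, Cartpt, Lypd1, Slc30a3 and Six3 as down in amygdala. Their counts set against all features are therefore a description and not a test of the set. The median exposure difference of the 8 genes was -0.11, -0.78, -0.69 and -1.10 at P7, P14, P21 and P75, while that of all features was 0.08, -0.06, -0.07 and -0.03. Leaving out any 1 array left these counts at P14, P21 and P75 unchanged, and so did adding the random control probe to the fit.

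**Figure D1:**
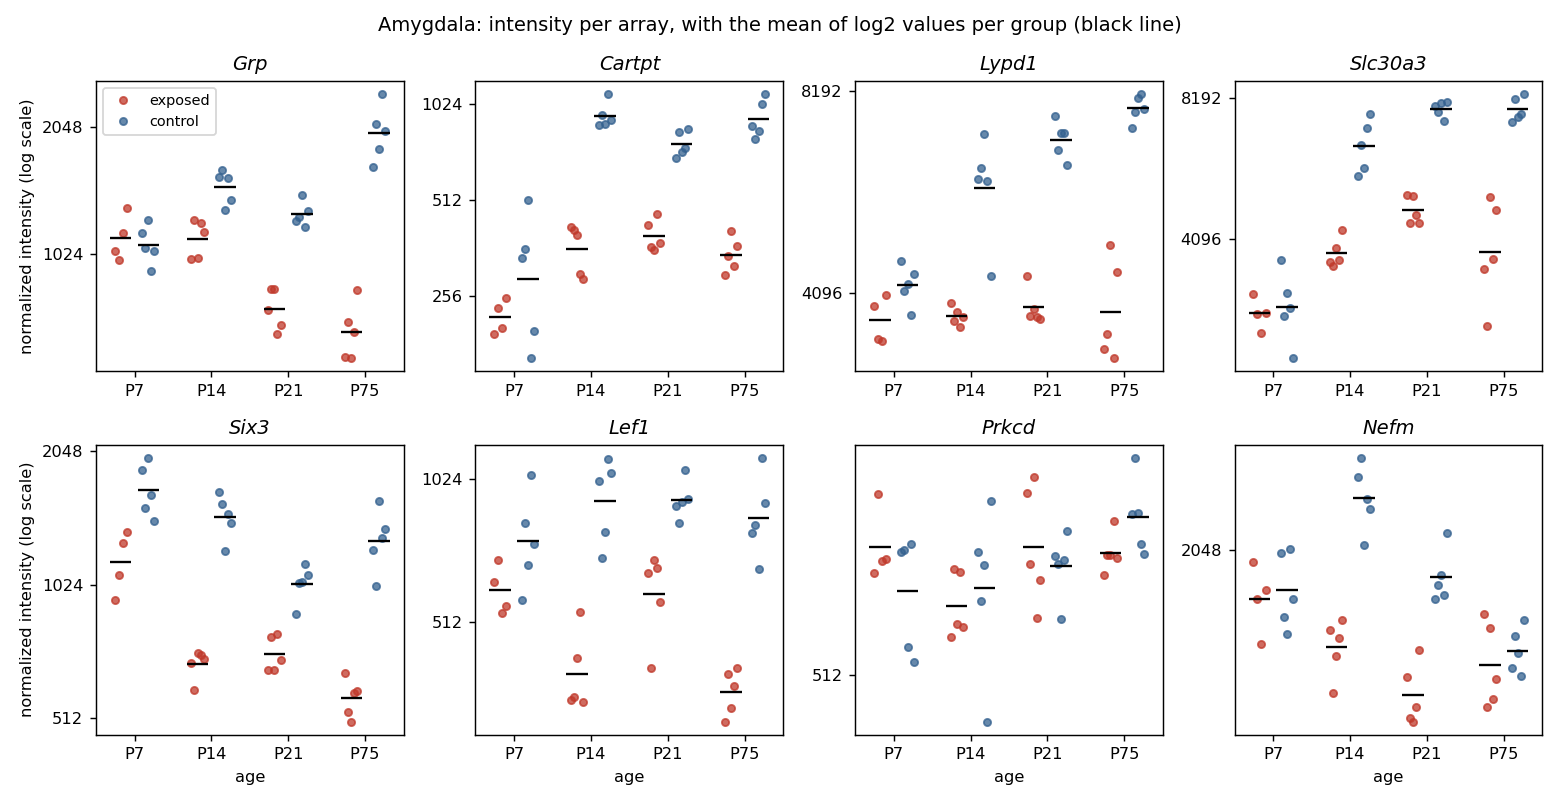
Normalized intensity (log axis) of the 8 genes on each amygdala array at P7, P14, P21 and P75, with exposed rats in red at the left of each age, control rats in blue at the right, and black lines at the means of the log2 values. Grp, Cartpt, Lypd1, Slc30a3, Six3 and Lef1 had no overlap between exposed and control arrays at P14, P21 and P75, whereas Prkcd overlapped at each age. The share of all features without overlap was not counted. Of all features, 19.3%, 16% and 11.8% were called lower at P14, P21 and P75.

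Grp, which encodes gastrin-releasing peptide, a bombesin-like peptide of excitatory amygdala neurons in mice, was further below controls at later ages. At P7 it read 1043, 991, 1150.4 and 1319.9 in exposed amygdala, against 1152, 1060.0, 1232, 936 and 1041 in control amygdala, and the groups overlapped (log2 difference 0.05 ± 0.12, adjusted p = 0.838). At P75 it read 584, 709, 582, 672 and 845 in exposed amygdala, against 1648, 2087, 1817, 2449 and 2006 in control amygdala. Every exposed adult lay far below every control adult, and the mean was 0.339 times the control mean on the log scale (log2 difference -1.56 ± 0.12, adjusted p = 7.55e-12). The differences at P14 and P21 were -0.41 ± 0.12 and -0.75 ± 0.12 (adjusted p = 0.00695 and 1.72e-05). The exposure difference in Grp was unequal over the ages (moderated F test, adjusted p = 4.05e-07), as was that of all the genes but Prkcd, against 32.7% of all features, and within the exposed arm the difference between P75 and P7 was -0.74 on the log2 scale, called lower, and within controls it was 0.88, called higher (37.5% of all features were called between those ages in exposed amygdala). In the authors' deposited table for P75, Grp was listed as down with an absolute fold change of 2.953.

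Cartpt, the precursor of the CART peptides that act on feeding and reward, was lower from P14 on. It read 422, 412, 397, 300.4 and 290.0 in exposed amygdala at P14, against 880.2, 946, 889.8, 1101 and 918 in control amygdala. The exposed arrays all lay far below the lowest control array, and the log2 difference was -1.39 ± 0.19 (adjusted p = 4.51e-07). At P21 the means were 397 ± 46.1 in exposed and 772 ± 71.2 in control amygdala (SD, n = 5 each), a difference of -0.96 ± 0.19. At P75 they were 347 ± 43.2 in exposed and 929.7 ± 129 in control amygdala, a difference of -1.42 ± 0.19 (adjusted p = 5.06e-07). At P7 the control arrays alone spanned 164 to 512 and took in all of the exposed ones, and the difference of -0.39 ± 0.20 was not called (adjusted p = 0.214). The authors' deposited tables listed Cartpt as down in amygdala at P14, P21 and P75, with absolute fold changes of 2.624, 1.946 and 2.677.

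Lypd1, a GPI-anchored relative of the Ly6 toxins that modulates nicotinic receptors, read 3380.1, 3559.8, 4830.3, 3279.6 and 4402 in exposed amygdala at P75, against 7198, 7599.8, 7997, 8089 and 7682 in control amygdala. Exposed adults were all below the lowest control (log2 difference -1.00 ± 0.11, adjusted p = 1.57e-08). The differences were -0.63 ± 0.11 at P14 and -0.83 ± 0.11 at P21, and at P7 -0.17 ± 0.11, which was not called (adjusted p = 0.358). Between arrays of a group, Lypd1 went with the spread of the whole array, given here as a description, with a Pearson r of 0.66 to the interquartile range of log2 values and of -0.61 to the random control probe over 39 amygdala arrays. This was not particular to Lypd1: the r to the interquartile range there was 0.50 for Grp, 0.43 for Cartpt, 0.34 for Slc30a3 and 0.21 for Six3. For Nefm, Lef1 and Prkcd it was 0.09, -0.08 and -0.16. Over the hippocampal arrays it ran from -0.24 for Grp to 0.40 for Lypd1. With the probe in the fit the adult exposure difference of Lypd1 in amygdala was -1.39. Quantile normalization, which gives all arrays the same spread, kept the Lypd1 calls at P14, P21 and P75. The part of these array measures in its exposure difference was not tested further. The authors' deposited table for P21 gave Lypd1 as down, with an absolute fold change of 1.775.

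Slc30a3 read 5070.0, 4428, 5054, 4604 and 4432 in exposed amygdala at P21, against 7877, 7659.9, 8018, 7310.3 and 8065 in control amygdala. The groups did not overlap, and the log2 difference was -0.72 ± 0.13 (adjusted p = 7.85e-05). It was -0.76 ± 0.13 at P14 and -1.02 ± 0.13 at P75 (adjusted p = 1.65e-05 and 2.49e-07), and at P7 the difference of -0.04 ± 0.14 had a 95% interval of -0.32 to 0.23. Exposed amygdala still gained Slc30a3 with age, by 0.44 from P7 to P75, against 1.41 in controls. Of 11 genes listed for zinc transport and metallothioneins, 5 were measured. Among them Slc30a3 was the only one called in the amygdala at P14, P21 and P75, and of the 4 others 1, 1 and 0 were higher and 0, 1 and 2 lower at those ages. Of all features 16.5%, 9.45% and 9.35% were higher and 19.3%, 16% and 11.8% lower. Slc30a4, which moves zinc into vesicles and endosomes, differed by 0.68, -0.04, -0.41 and -0.43 over the 4 ages, called higher at P7 and lower at P21 and P75, and Mt1, a zinc-binding metallothionein, was higher at P14 and P21, by 0.61 and 0.51.

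Six3, a homeobox factor that in mice directs striatal neurons of the D2 type and is kept in the thalamic reticular nucleus, was the only gene of the 8 called at each amygdalar age. At P7 it read 947, 1076, 1272 and 1348 in exposed amygdala, against 1858, 1529.8, 1981, 1632 and 1423 in control amygdala. The groups were close but did not overlap (log2 difference -0.54 ± 0.13, adjusted p = 0.00917), and the call was lost when the 2 groups were fitted alone, at an adjusted p of 0.134, and when all 78 arrays were fitted together, at 0.057. At P14 Six3 read 679.7, 591, 718, 709 and 696 in exposed amygdala, against 1658, 1562, 1222, 1482 and 1411 in control amygdala. The exposed arrays lay within a narrow range well below the controls, and the difference was -1.11 ± 0.12 (adjusted p = 1.23e-08). It was -0.53 ± 0.12 at P21 and -1.18 ± 0.12 at P75. The authors' deposited table for P14 listed Six3 as down, with an absolute fold change of 2.155.

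Lef1 read 317, 399, 338, 377 and 409.6 in exposed amygdala at P75, against 785, 816, 662, 1131 and 910.3 in control amygdala. No exposed array reached the lowest control, and the log2 difference was -1.21 ± 0.16 (adjusted p = 9.54e-07). The difference was -1.21 ± 0.16 at P14 and -0.65 ± 0.16 at P21, and at P7 -0.34 ± 0.17, which was not called (adjusted p = 0.227). Of 30 genes listed for the Wnt and TCF/LEF pathway 13 were measured, Lef1 among them. Of the 12 others, in exposed amygdala, 1 was called higher and 0 lower at P7, 2 and 4 at P14, 2 and 3 at P21, and 2 and 5 at P75, when the shares of all features were 5.66%, 16.5%, 9.45% and 9.35% higher and 2.17%, 19.3%, 16% and 11.8% lower. The pathway's members did not move one way: at P75 Ctnnb1, which encodes beta-catenin, LEF1's coactivator, was higher by 0.49, while Gsk3b, the kinase that marks beta-catenin for degradation, differed by -0.35 and Apc, a scaffold of the same complex, by -0.51, both called lower.

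Nefm was called at P14 and P21 and not at P7 and P75. At P14 it read 1528, 1213, 1392, 1483 and 1588 in exposed amygdala, against 2681, 2877, 2093, 2469 and 2388 in control amygdala, with no overlap (log2 difference -0.79 ± 0.12, adjusted p = 3.27e-06). The difference was -0.62 ± 0.12 at P21 (adjusted p = 2.14e-04). At P7 and P75 the groups overlapped, and the differences of -0.04 ± 0.13 and -0.08 ± 0.12 had 95% intervals of -0.30 to 0.21 and -0.32 to 0.16. Of the 6 other neuronal intermediate filament genes listed, all measured, 4 were lower at P14, 2 at P21 and 1 at P75, against 19.3%, 16% and 11.8% of all features, and none was higher. Nefl, the light subunit, differed by -0.40 at P14, Nefh, the heavy subunit, by -0.75, and Ina, the internexin that assembles with them, by -0.39.

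Prkcd overlapped between exposed and control amygdala at each age. It read 683, 726, 725, 801 and 719.5 in exposed amygdala at P75, against 817, 962, 819, 749.8 and 727 in control amygdala, a log2 difference of -0.15 ± 0.14 with a 95% interval of -0.43 to 0.13 (adjusted p = 0.481). The differences at P7, P14 and P21 were 0.19 ± 0.15, -0.08 ± 0.14 and 0.08 ± 0.14, with intervals of -0.11 to 0.48, -0.35 to 0.20 and -0.20 to 0.36. At each age the interval left out differences as large as those measured for Six3, Cartpt and Lef1 at P14. Of 9 protein kinase C genes 6 were measured. Of the 5 other than Prkcd none was higher in exposed amygdala, and 2, 1 and 1 lower at P14, P21 and P75, against 19.3%, 16% and 11.8% of all features. Prkce, the epsilon isoform, was lower at those ages, with differences of -0.63, -0.44 and -0.35.

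Promoter sequences of the 3 genes of cell-surface or secreted products that fell in exposed amygdala, and of Prkcd, which was not called there, are given to show how they differ in the cyclic AMP response element through which peptide genes are commonly switched on. Each runs 5′ to 3′ on the gene's own strand over 250 bases before a start that RefSeq annotates in assembly GRCr8, and 8 of the 9 genes had an entry (all but Nefm). Capitals mark matches on either strand to the full element TGACGTCA, its 5-base core TGACG or the TATA box TATAAA.
Cartpt: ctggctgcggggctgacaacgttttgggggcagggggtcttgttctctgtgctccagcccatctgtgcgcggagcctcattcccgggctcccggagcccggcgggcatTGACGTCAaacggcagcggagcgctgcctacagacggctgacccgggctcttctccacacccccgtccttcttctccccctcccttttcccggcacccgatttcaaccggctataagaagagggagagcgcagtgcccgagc
Grp: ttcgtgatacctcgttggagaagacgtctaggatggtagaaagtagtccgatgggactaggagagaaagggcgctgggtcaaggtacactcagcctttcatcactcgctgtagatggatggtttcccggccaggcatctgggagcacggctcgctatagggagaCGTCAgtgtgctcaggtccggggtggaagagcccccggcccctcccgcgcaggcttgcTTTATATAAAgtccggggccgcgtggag
Lypd1: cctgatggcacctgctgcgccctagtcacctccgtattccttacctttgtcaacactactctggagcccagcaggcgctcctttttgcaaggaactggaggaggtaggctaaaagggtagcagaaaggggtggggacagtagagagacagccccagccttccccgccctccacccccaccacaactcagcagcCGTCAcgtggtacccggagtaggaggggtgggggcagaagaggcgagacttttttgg
Prkcd: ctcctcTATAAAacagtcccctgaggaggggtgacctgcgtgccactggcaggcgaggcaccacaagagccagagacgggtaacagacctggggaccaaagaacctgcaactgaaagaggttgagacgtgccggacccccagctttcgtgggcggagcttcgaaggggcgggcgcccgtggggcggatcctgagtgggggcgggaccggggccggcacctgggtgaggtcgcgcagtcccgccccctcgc
These stretches lie at chr2:32991236-32991485 on the minus strand for Cartpt, chr18:61658405-61658654 on the plus strand for Grp, chr13:39921122-39921371 on the minus strand for Lypd1 and chr16:5805840-5806089 on the minus strand for Prkcd. Cartpt held 1 full element, which 1.7% of 27457 rat promoter windows of the same length held, and the 2 core matches in Cartpt both lie within it. Grp and Lypd1 held 1 core match each, read as CGTCA on the printed strand, and so did Tcf7l2; 19.0% of the windows held one. Slc30a3, Six3, Lef1 and Prkcd held neither. TATAAA occurred 2 times in Grp, on opposite strands and overlapping, and 1 time in Prkcd (13.1% of windows), and CTTTGAT, a TCF/LEF motif, occurred in none of the 8 windows (3.18% of all). For Cartpt, Lypd1 and Prkcd the stretch lies inside the annotated span of the gene, which begins further upstream, so another start than the outermost one was used. A match is a description of the letters in the window.

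In the hippocampus, exposed rats had some of these genes higher and others lower than controls. At P7 all 8 were called, 4 higher and 4 lower, in a comparison that called 53.4% of all features. At P14, 2 were called, both higher (38.2% of features called), at P21, 3 higher and 1 lower (26.4%), and at P75, 5 higher (42.4%). The median difference of the 8 genes was -0.19, 0.23, 0.20 and 0.42 at P7, P14, P21 and P75, against 0.07, 0.01, 0.04 and 0.02 for all features. The random control probe moved with these comparisons. It read 53.0 ± 1.61 in exposed and 44.0 ± 0.381 in control hippocampus at P7, 47.6 ± 0.63 and 55.2 ± 0.324 at P21, and 49.0 ± 0.281 and 56.3 ± 0.667 at P75 (mean ± SD, n = 4 exposed at P7 and 5 otherwise). With the probe as a covariate none of the 8 genes was called at P7, P21 or P75, and 2 were at P14, in a fit that called 6.48%, 17.5%, 0.00757% and 0.432% of all features at P7, P14, P21 and P75. The count over all features was thus also far lower than without the probe at P7, P21 and P75. At these ages the probe differed more between the 2 groups than within them, and differences fitted with it had wide SEs (0.57 for Grp at P7). A call lost or a sign turned in that fit therefore does not show that a difference is absent. In the amygdala, where the probe read 46.1 ± 1.56 in exposed and 50.8 ± 0.428 in control rats at P75, the same fit called 1, 7, 7 and 6 of the genes at P7, P14, P21 and P75, and 1.02%, 38%, 19% and 16.9% of all features.

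**Figure D2:**
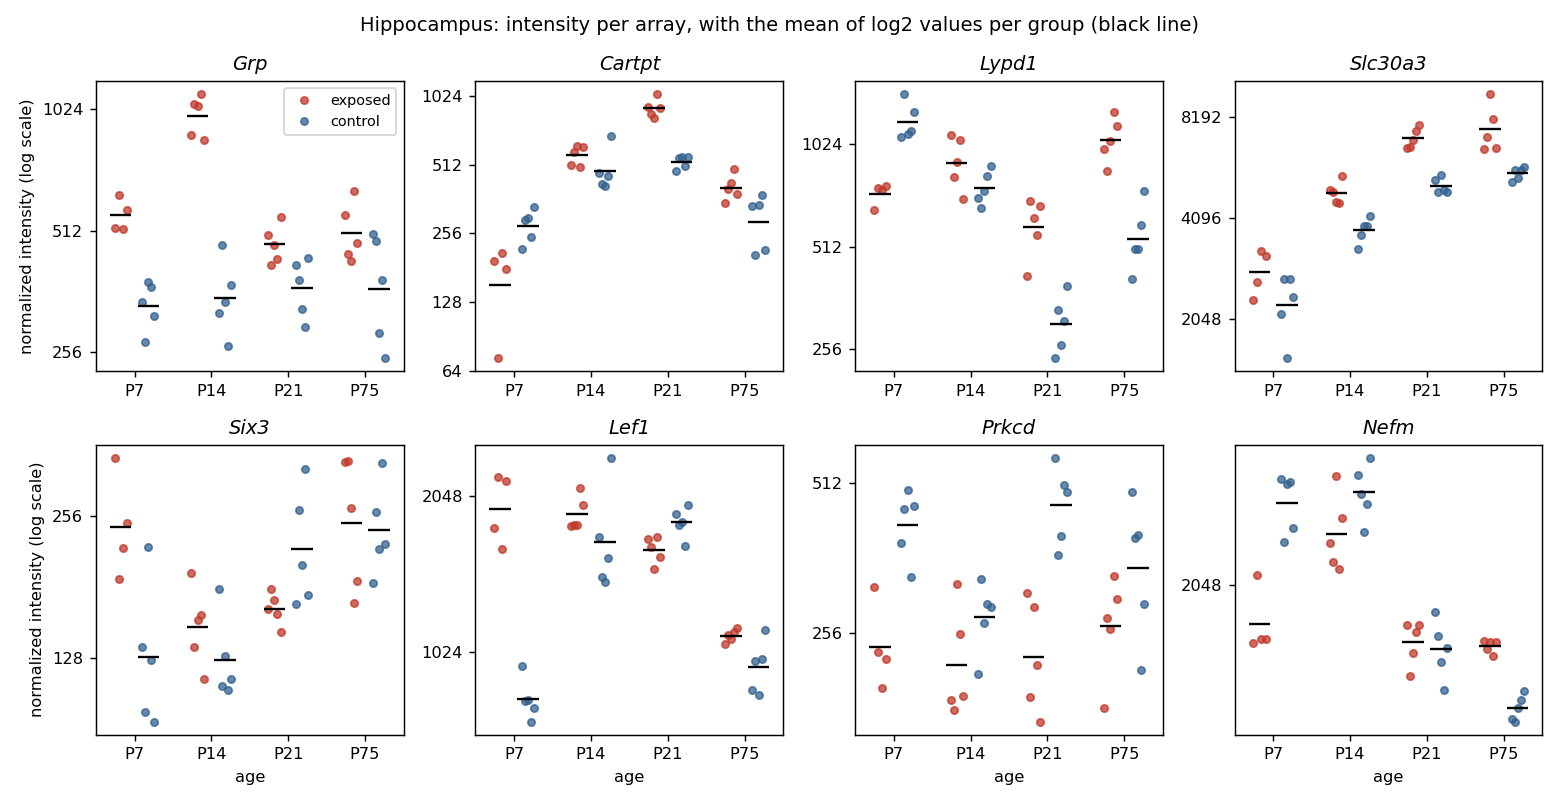
Normalized intensity (log axis) of the 8 genes on each hippocampal array at P7, P14, P21 and P75, exposed rats in red left of control rats in blue, with black lines at the means of the log2 values. Grp stood apart at P7 and P14, Lef1 at P7 and Slc30a3 at P14, P21 and P75, with exposed arrays above control arrays, while Cartpt and Lypd1 lay lower in exposed rats at P7 and higher at P21, as Lypd1 also did at P75. Prkcd lay lower in exposed rats without overlap at P7 and P21, and Nefm lower at P7 and higher at P75. The share of all features without overlap was not counted. Of all features, 53.4%, 38.2%, 26.4% and 42.4% were called at P7, P14, P21 and P75.

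Grp gave the widest hippocampal difference of the 8 genes, at P14. It read 883, 1053, 1045, 1115 and 859 in exposed hippocampus, against 319, 471, 339.6, 265 and 376 in control hippocampus. All exposed arrays were well above all controls (log2 difference 1.50 ± 0.17, adjusted p = 5.22e-09). The call held with the random probe in the fit, at 1.18 (adjusted p = 0.00204), and against control replicates 1 to 3 alone and 4 and 5 alone, at 1.41 and 1.64. Grp differed by 0.74 ± 0.18 at P7 and 0.46 ± 0.17 at P75, both called, and by 0.36 ± 0.17 at P21, not called (adjusted p = 0.106). At P7 it was 0.78 with exposed replicates 1 and 2 alone and 0.71 with 3 and 4 alone. With the random probe in the fit it was -0.10 ± 0.57, an SE far wider than the 0.18 without the probe. The P75 call was lost without control replicate 3 or 5 or exposed replicate 1 or 4, with differences down to 0.32, and with the probe (adjusted p = 0.233).

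Lef1 in the hippocampus differed at P7. It read 1772, 2229, 1621 and 2183 in exposed hippocampus, against 963, 826, 829, 753 and 799.6 in control hippocampus, and the exposed P7 arrays lay within the range of the controls at P14 (1394 to 2421). The log2 difference was 1.22 ± 0.13 (adjusted p = 2.59e-10), and it was 1.26 with exposed replicates 1 and 2 alone and 1.18 with replicates 3 and 4 alone. With the random probe as a covariate it was 0.99 (adjusted p = 0.156). At P14, P21 and P75 the groups overlapped, with differences of 0.18 ± 0.12, -0.17 ± 0.12 and 0.20 ± 0.12, none called. Against control replicates 1 to 3 alone the P14 difference was 0.33 and called (adjusted p = 0.0356).

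Cartpt and Lypd1 were lower in exposed hippocampus at P7 and higher at P21, though neither call held with the random probe in the fit. At P7 Cartpt read 194, 73.0, 211 and 178 in exposed hippocampus, against 218, 293, 298, 247 and 335 in control hippocampus, a difference of -0.86 ± 0.21 (adjusted p = 7.57e-04). The second exposed array was far below the others, and without it the difference was -0.50 (adjusted p = 0.0163). It was -1.21 with exposed replicates 1 and 2 alone, -0.51 with 3 and 4 alone, and -0.33 with the probe (adjusted p = 0.844). At P21 it read 919.6, 855, 819.8, 1042 and 904 in exposed hippocampus, against 480.0, 546, 555, 507 and 552 in control hippocampus. The exposed arrays were now all above the controls (log2 difference 0.78 ± 0.20, adjusted p = 0.0035), and the authors' deposited table for hippocampus at P21 listed Cartpt as up with an absolute fold change of 1.717. With the probe it was 0.36 (adjusted p = 0.931). At P75 Cartpt differed by 0.50 ± 0.20 (adjusted p = 0.0392), a call lost without control replicate 2 or 5 or exposed replicate 2, 3 or 4. Lypd1 differed by -0.70 ± 0.17 at P7, 0.25 ± 0.16 at P14, 0.95 ± 0.16 at P21 and 0.97 ± 0.16 at P75, called at each age but P14. With exposed replicates 1 and 2 alone and 3 and 4 alone the P7 difference was -0.76 and -0.65, and with the probe it turned to 0.11 ± 0.54 (adjusted p = 0.938). Moderated F tests of equal exposure differences over the 4 hippocampal ages were called for Cartpt and Lypd1 (adjusted p = 4.04e-05 and 7.75e-08), and for all of the 8 genes but Slc30a3 and Prkcd, against 63.5% of all features.

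Slc30a3 was the only gene of the 8 called in the same direction at each hippocampal age, higher in exposed rats by 0.33 ± 0.13, 0.37 ± 0.12, 0.48 ± 0.12 and 0.44 ± 0.12 at P7, P14, P21 and P75. At P75 it read 6571, 7160.3, 9606, 8111 and 6649 in exposed hippocampus, against 5234, 5693, 5377, 5709 and 5826 in control hippocampus, with no overlap. At P7 the groups overlapped, and leaving out 1 array ended the call in 4 of 9 cases (control replicates 1 and 3 and exposed replicates 3 and 4), with differences of 0.20 to 0.42. With exposed replicates 1 and 2 alone it was 0.15 and not called, and with 3 and 4 alone 0.52. The random probe as a covariate turned the difference to -0.07 ± 0.34 at P21 and -0.08 ± 0.32 at P75. Against hippocampal control replicates 4 and 5 alone the P14 difference was 0.28 and not called (adjusted p = 0.177).

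Six3, Prkcd and Nefm had scattered hippocampal calls. Six3, whose hippocampal level was low, was higher at P7 by 0.92 ± 0.23, and read 340.1, 189, 219 and 247 in exposed hippocampus, against 135, 98.1, 220.1, 127 and 93.8 in control hippocampus, with 1 control array inside the exposed range. By set it was 0.98 with exposed replicates 1 and 2 and 0.86 with 3 and 4. Prkcd was lower at P7 and P21, with differences of -0.81 ± 0.22 and -1.01 ± 0.20 (adjusted p = 0.00184 and 4.11e-04). With exposed replicates 1 and 2 alone the P7 difference of Prkcd was -0.63 and not called, and with 3 and 4 alone -0.99. At P21 it read 308, 191, 288, 221 and 170.2 in exposed hippocampus, against 574, 367, 401, 507 and 489.6 in control hippocampus. The groups did not overlap there, yet the difference was -0.06 with the random probe in the fit. Nefm was lower at P7, with a difference of -0.79 ± 0.13 (-0.69 and -0.88 by set), and higher at P75, with 0.40 ± 0.12.

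**Figure D3:**
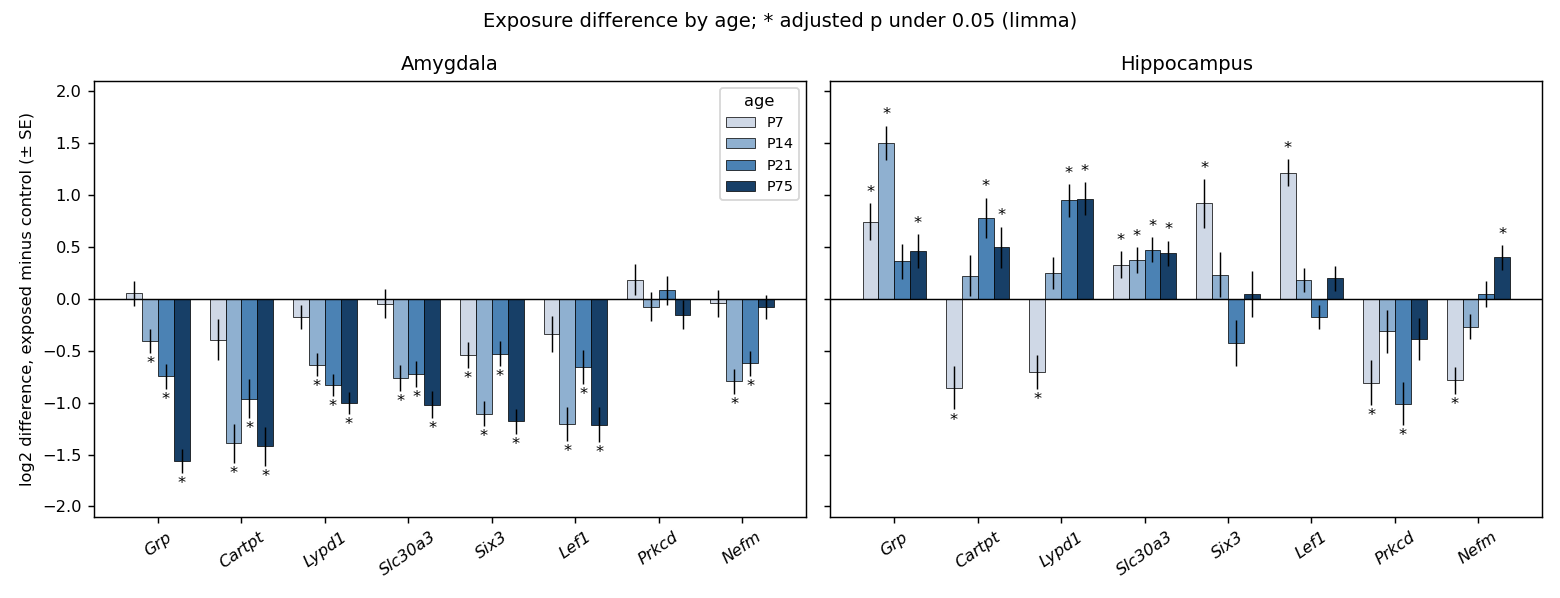
Exposed minus control difference of each gene on the log2 scale (bars, with SE of the limma fit) in amygdala (left panel) and hippocampus (right panel) at P7, P14, P21 and P75, with a star at adjusted p under 0.05. In the amygdala the called bars all point down, reaching -1.56 for Grp at P75, and in the hippocampus they point up and down, reaching 1.50 for Grp at P14.

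Whether the exposure difference was unequal in amygdala and hippocampus was tested directly. The region by treatment term, the amygdalar exposure difference minus the hippocampal one in a fit of all 78 arrays, was called for 6, 7, 7 and 7 of the 8 genes at P7, P14, P21 and P75, against 49.4%, 28.1%, 37.6% and 36.9% of all features. At P75 it was -2.02 ± 0.20 for Grp, -1.97 ± 0.19 for Lypd1 and -1.92 ± 0.27 for Cartpt (adjusted p = 1.44e-12, 2.32e-13 and 5.16e-08). Prkcd had terms of 0.99 ± 0.26 at P7 and 1.09 ± 0.25 at P21, positive where the other genes called at P21 were negative. Six3 was not called at P21, at -0.11 ± 0.25 (adjusted p = 0.775).

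The same terms can be read as the contrast between the regions in each arm, which in exposed rats called 45.9%, 44% and 31.8% of all features at P14, P21 and P75. Grp at P14 differed between amygdala and hippocampus by 0.18 ± 0.14 in exposed rats (adjusted p = 0.32) and by 2.09 ± 0.14 in control rats. Cartpt at P21 differed by -1.19 ± 0.19 in exposed and by 0.55 ± 0.19 in control rats, and at P75 by -0.24 ± 0.19 in exposed, not called, and 1.68 ± 0.19 in control rats. Slc30a3 at P75 differed by -0.98 ± 0.12 in exposed and by 0.48 ± 0.12 in control rats, so that the exposed hippocampus read above the exposed amygdala. Lypd1 and Six3 remained higher in the amygdala of exposed rats at each age, at P75 by 1.86 ± 0.13 and 1.20 ± 0.18. The median of the 8 genes over the regional contrast in exposed rats was 0.10 at P75, against 0.09 for all features, and in control rats 1.46, against 0.16.

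**Figure D4:**
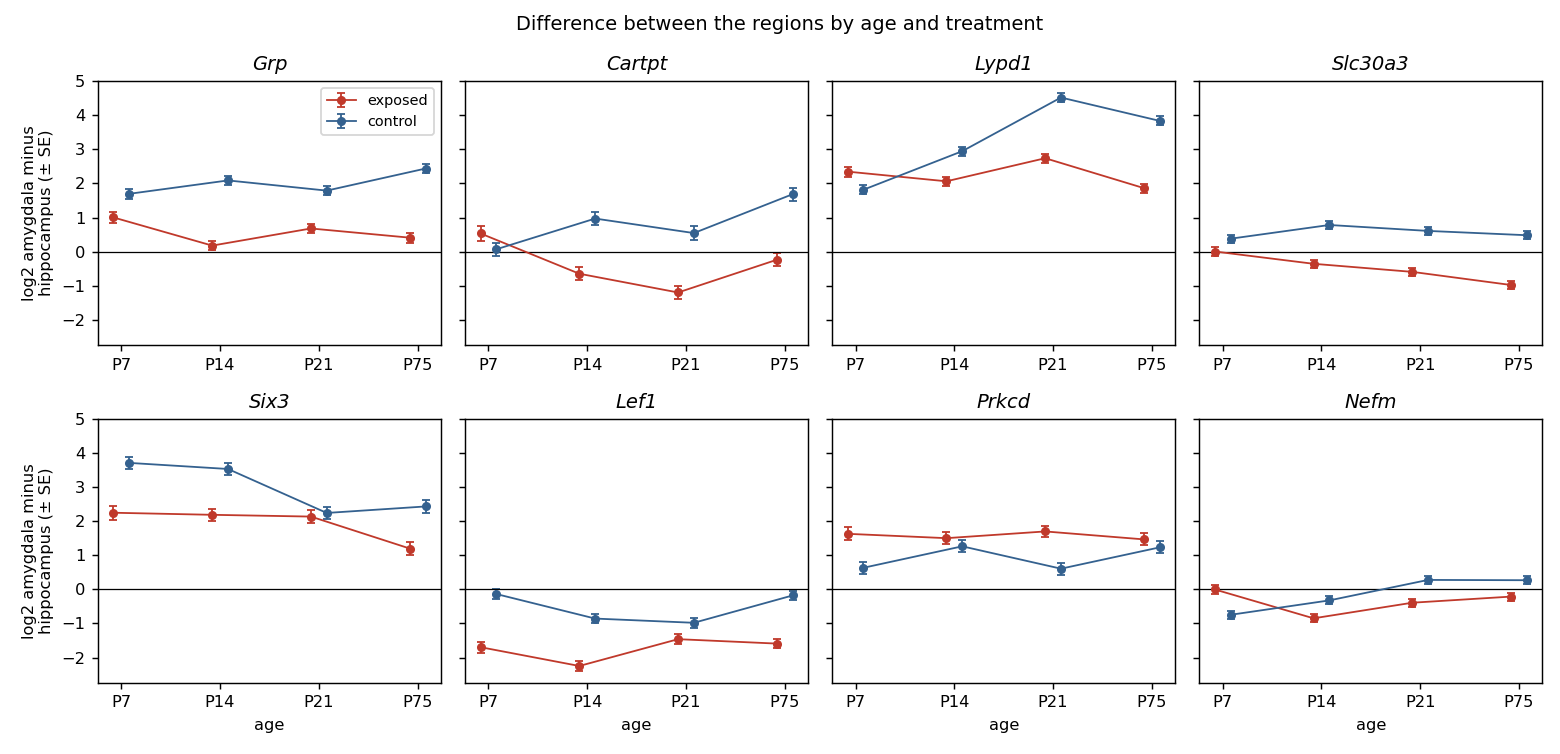
Amygdala minus hippocampus difference on the log2 scale (points, with SE of the limma fit) for each gene at P7, P14, P21 and P75, in exposed rats (red) and control rats (blue). For Grp and Slc30a3 the red line lies below the blue one at each age, for Prkcd it lies above, and for Cartpt it crosses below zero from P14 on.

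For the dissection borders, marker lists of neighbouring structures were read in the same arrays. Of the 11 striatal genes other than Six3, all measured, 8, 10, 7 and 9 were higher in control amygdala than in control hippocampus at P7, P14, P21 and P75, against 17.4%, 17.5%, 36.2% and 36% of all features, and none was lower. In exposed amygdala none was higher and 1 lower at P7, 3 and 5 at P14, 2 and 1 at P21, and 1 and 5 at P75, against 5.66%, 16.5%, 9.45% and 9.35% of all features higher and 2.17%, 19.3%, 16% and 11.8% lower. Their summed intensity spanned 16499 to 19013 in exposed and 16872 to 24874 in control amygdala at P7, 19942 to 21788 in exposed and 27295 to 30381 in control amygdala at P14, 30155 to 32372 in exposed and 28368 to 33340.2 in control amygdala at P21, and 25020.4 to 34778 in exposed and 44497 to 52825 in control amygdala at P75. The sums were thus separated at P14 and P75, where Six3 differed by more than at P7 and P21, and overlapped at P7 and P21. Ppp1r1b, the dopamine-regulated phosphatase inhibitor DARPP-32, differed by -1.03, -0.41 and -1.16 at P14, P21 and P75. Penk, the enkephalin precursor of D2 neurons, differed by -0.55, 0.10 and -0.72, while Adora2a, the adenosine receptor of the same neurons, differed by 0.57, 0.84 and -0.11, called higher at P14 and P21. The part of striatal tissue in the Six3 difference was not tested.

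Of 15 thalamic markers 7 were measured, Lef1 and Prkcd among them. The summed intensity of the 5 others was 12889 to 13239 in exposed and 8591 to 9995 in control amygdala at P7, 9376 to 10658 and 10678 to 12121 at P14, 4450.1 to 5001 and 5450.1 to 6441 at P21, and 2128 to 3023 and 3049 to 3926 at P75. The exposed sums thus lay above the controls at P7 and below them at P14, P21 and P75, with no overlap. Calb2, which encodes the calcium-binding calretinin of midline thalamus and interneurons, differed by 0.51, -0.15, -0.39 and -0.82 in amygdala at P7, P14, P21 and P75, called higher at P7 and lower at P21 and P75. In the reticular thalamus list of Six3, Pvalb and Ecel1, both others than Six3 were lower in exposed amygdala at P21, and Pvalb, a calcium-binding protein of fast-spiking neurons, differed by -0.83 at P21 and -1.28 at P75, called lower at both ages. The habenular list, with 4 of 6 genes measured, summed to 232 to 375 in exposed and 272 to 511 in control amygdala at P75, and the groups overlapped at P7, P14, P21 and P75 with no gene called. Such sums of 4 genes are low, since the random control probe alone read 42.9 to 57.2. Their overlap therefore says little about habenular tissue.

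For the amygdala itself and the piriform cortex, the lists were short once the 8 genes were set aside. Of 8 basolateral genes 4 were measured: Grp, Lypd1, Slc17a7 and Cyp26b1. Slc17a7, the vesicular glutamate transporter VGLUT1, differed by 0.51, -0.05, 0.09 and 0.36 in exposed amygdala at P7, P14, P21 and P75, called higher at P7 and P75, and P75 was the age at which Grp and Lypd1 were lowest against controls. Its sum with Cyp26b1 was 7217 to 9889 in exposed and 5039 to 6387 in control amygdala at P7, with no overlap, and the groups overlapped at P14, P21 and P75. Cyp26b1, the retinoic acid hydroxylase of basolateral neurons, differed by 0.46, -0.05, -0.12 and -0.47, called lower at P75. Of 9 piriform and cortical genes 4 were measured, and Nr4a2, an orphan nuclear receptor, differed by -0.58 at P21, called lower, and by -0.00 at P75. Without the 8 genes, the piriform and cortical sum held 2 genes, Nr4a2 and Slc17a7, and Slc17a7 is also in the basolateral sum. The 2 sums are thus not separate readings, with medians of 6012 and 5962 in control amygdala at P7. The piriform and cortical sum was higher in exposed amygdala at P7 and P75 with no overlap, and overlapped at P14 and P21. Of 11 central and medial amygdala genes 7 were measured, Prkcd among them. The summed intensity of the 6 others was 7103 to 8632 in exposed and 9507 to 12801 in control amygdala at P14, 6687 to 7308 and 8592 to 9177 at P21, and 4871 to 6212 and 9007 to 9864 at P75. The exposed sums were lower at these ages with no overlap, whereas at P7 the groups overlapped. A sum of intensities weighs the brightest genes most, so it can differ while few genes of a list do. Of the 6, 2 were higher and 2 lower at P14, 0 and 2 at P21, and 0 and 2 at P75. Of all features 16.5%, 9.45% and 9.35% were higher and 19.3%, 16% and 11.8% lower at those ages. Sst, somatostatin, differed by -0.73, -0.53 and -0.97 at P14, P21 and P75, called lower, and Crh, the stress peptide, by 1.63 at P14, called higher. The part of a shift in the dissected tissue in the differences of the 8 genes was not tested.

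Markers of other tissues moved with the exposure comparisons in both regions. Of 8 choroid plexus genes 7 were measured, and in the amygdala their sum was 4452 to 5049 in exposed and 2296 to 3480.3 in control rats at P7, 2283 to 5365 and 4062 to 6368 at P14, 6158 to 7388 and 1638 to 2247 at P21, and 4725 to 5267 and 5275 to 6829 at P75. The groups were apart at P7 and P21, with exposed rats higher, and at P75, with exposed rats lower. In the hippocampus the sum was 7981 to 9587 in exposed and 2479 to 2759.6 in control rats at P7, 6166 to 6876 and 3864 to 4841 at P14, 2099 to 2573 and 3819 to 4484 at P21, and 2648 to 3665 and 3082 to 3974 at P75. It was higher in exposed rats at P7 and P14 and lower at P21, with no overlap. Astrocyte markers, of which 6 were measured, summed to 14046 to 14985 in exposed and 44568 to 51088 in control hippocampus at P7, and to 32988 to 36574 and 62790.4 to 81128 at P14, the age of the widest Grp difference. They were above the controls without overlap in exposed hippocampus at P21 and P75 and in exposed amygdala at P75 (53868 to 74462 against 41919 to 44109). Sums of microglial and oligodendrocyte markers overlapped in the amygdala at each age. At P7, though, the oligodendrocyte sum spread widely over control amygdala arrays, from 4681 to 14935 with a median of 13774. In exposed amygdala it ran from 5819 to 7258 at that age, with a median of 6284. In the hippocampus the microglial sum was lower in exposed rats at P7 and P14 and higher at P75, and the oligodendrocyte sum higher at P21 and P75, with no overlap. Vascular sums were higher in exposed amygdala at P21 and P75 and lower in exposed hippocampus at P7 and P14, and hypothalamic sums were higher in exposed amygdala at P14 and P21, higher in exposed hippocampus at P7 and P14 and lower there at P21 and P75, in each case with no overlap. Slc17a7 differed by -1.18, -0.95, 0.43 and 1.00 in exposed hippocampus at P7, P14, P21 and P75, called at each age. Striatal markers summed, without Six3, to 14077 to 15842 in exposed and 7796 to 9039 in control hippocampus at P75, with Penk higher by 1.42, and were also apart in that direction at P21 and overlapped at P7 and P14. Thalamic sums without Lef1 and Prkcd were lower in exposed hippocampus at P7 and P21 with no overlap. The sum of the 4 measured hippocampal markers overlapped in the amygdala at each age. In the hippocampus it was lower in exposed rats at P7 and P14 (3471 to 4030 against 6845 to 9307, and 4511 to 4740 against 5440 to 6398). It was higher there at P21 and P75 (3907 to 4715 against 3411 to 3879, and 6726 to 7110 against 4421 to 5466), with no overlap. The part of these tissues in the exposure differences of the 8 genes was not tested in either region.

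Within groups, no pair of the genes was called as varying together. For each of 28 pairs per region, the deviations of 39 arrays from their group means were correlated and tested by a permutation test within groups (100000 permutations, two-sided, adjusted over 56 pairs). No pair was called by Pearson's r or by Spearman's rho, and 2 of 56 had an unadjusted p under 0.05, both in the hippocampus. In the amygdala r ran from -0.26 to 0.36 with a median of 0.02, and in the hippocampus from -0.49 to 0.41 with a median of -0.08. Slc30a3 and Six3 in the hippocampus had an r of -0.49 and a rho of -0.41 (permutation p = 0.0181 and 0.0273, adjusted p = 0.685 and 0.737), with r = -0.35 over exposed and -0.60 over control arrays. Lef1 and Nefm there had an r of 0.41 and a rho of 0.41 (permutation p = 0.0245 and 0.0209, adjusted p = 0.685 and 0.737), which came to r = 0.28 without the 2 arrays farthest from the median of Lef1.

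**Figure D5:**
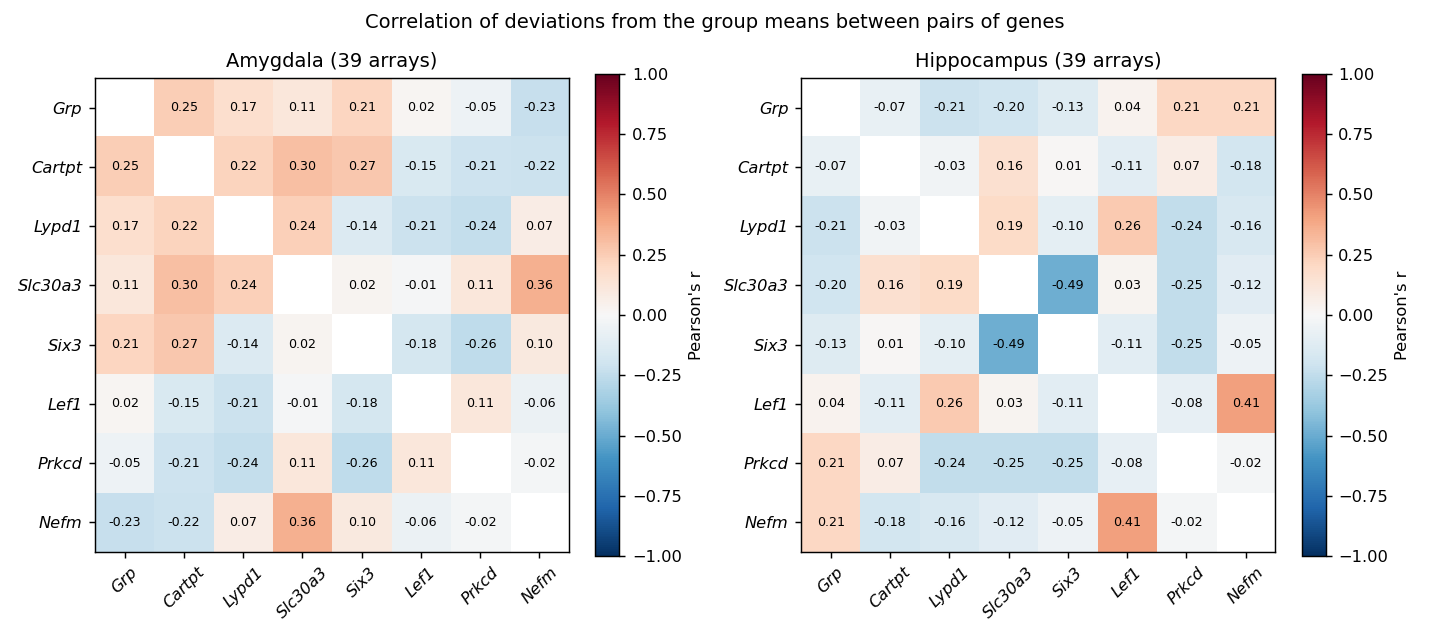
Pearson's r between pairs of the 8 genes over 39 arrays of a region, each array taken as its deviation from its group mean, for amygdala (left) and hippocampus (right), with red for positive and blue for negative values. Most cells are pale; the strongest in the amygdala is Slc30a3 with Nefm at 0.36 and in the hippocampus Slc30a3 with Six3 at -0.49.

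The order of levels over the 16 group means differed between the genes. Grp was highest in control amygdala at P75 (2002 ± 303, SD, n = 5), whose range did not reach the next group, control amygdala at P14 (1483 ± 136), and from there down each group overlapped its neighbour as far as exposed hippocampus at P14 (991 ± 113). That group was separated from exposed amygdala at P21 (763 ± 84.9), which came next. Cartpt had its 4 highest means in control amygdala at P14 and P75, exposed hippocampus at P21 and control amygdala at P21, which overlapped in that order and were separated from the rest. Slc30a3 overlapped from each group to the next over all 16, with control amygdala at P21 and P75 at the top and control hippocampus at P7 at the bottom. Lef1 was highest in 5 hippocampal groups, from exposed P7 to exposed P21, separated from exposed hippocampus at P75 and everything below. Prkcd was higher in all 8 amygdala groups than in the 8 hippocampal ones by mean, with overlap throughout, and Nefm was highest in control hippocampus at P14 and P7.

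Among 4870 named genes above the median level, the ones whose 16 group means followed each gene most closely were listed as a description. Six3 was followed most closely of all, by Drd2, the D2 dopamine receptor, at a Pearson r of 0.99 of log2 means over 16 groups, then by Hs3st2 at 0.97 and Dlx5 at 0.96. Drd2 itself differed by -0.51, -0.73, -0.32 and -1.23 in exposed amygdala at P7, P14, P21 and P75, called lower at each age but P21. Lypd1 was followed by Pnck, Atp2b4 and Cep41, all at 0.97, Slc30a3 by Chchd10, C2cd2l and Nr1d1 at 0.95, 0.95 and 0.94, and Prkcd by Ift22, Trmt1 and Bckdha at 0.94, 0.93 and 0.93. The closest for Grp was Fbxo16 at 0.92, for Lef1 Col1a2 at 0.91, for Nefm Fgf13 at 0.90 and for Cartpt Vtn at 0.87. The points of each r share regions, ages and treatment, which move many transcripts at once.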

How the data were processed

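Single-colour NimbleGen arrays of 78 samples were read from 1 table that the authors deposited, whose values are normalized intensity, not logged. The normalization method is not given in the sources used here, and the regions may have been normalized separately. Of 26420 features 1 was a random control probe, and of the rest 9740 were named through RefSeq identifiers (assembly GRCr8, names only) and 42 through the comparison tables, giving 9662 genes. A further 8 deposited tables compare exposed and control rats, with a p-value from an unpaired t-test, its Bonferroni correction and an absolute fold change, per the file headers. Their 312 per-array columns match no label and were not used.

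Log2 was taken of the deposited intensities, without pseudocount, filter or further normalization. Group means were fitted to the 39 arrays of a region for exposure and age, and to 78 arrays for region and its interaction with treatment, in R 4.3.3 with limma 3.58.1 and, for robust fits, statmod 1.5.0. Moderated tests were two-sided, adjusted by Benjamini-Hochberg over 26419 features and called below 0.05. The fits were tested on simulated data. The number of arrays, 4 or 5 a group, limits the precision, and intensities carry no counting depth.

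The 9 genes, the gene lists and the tests were chosen with earlier results of these data known. The text names all 9 genes, and a selection of the 3 named genes most like each in pattern and of the up to 4 genes of a list with the highest mean level. Replicate numbers did not pair arrays: same-numbered arrays had deviations correlated at -0.157 to 0.077 between exposed and control groups, with 0 of 38 pairs over 0.1, and 0 of 39 between regions.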

Additional observations from a re-analysis of the deposited data

Results flagged for a closer look

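Of 128 groups of 4 or 5 arrays, 1 for each gene and group, 5 held an array far from the rest by Dixon's test, which chance gives in about 1 group in 20. These were Cartpt at 73 in hippocampus P7 exposed replicate 2 (the others spanned 178 to 211), Cartpt at 685.6 in hippocampus P14 control replicate 5, Lypd1 at 4345.1 in amygdala P21 exposed replicate 1, Six3 at 590.9 in amygdala P14 exposed replicate 2, and Nefm at 2146.3 in hippocampus P7 exposed replicate 2.

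The exposure difference of the amygdala minus that of the hippocampus passed the limma test in 27 cases. At P7 it was -0.69 for Grp, 0.53 for Lypd1, -1.46 for Six3, -1.56 for Lef1, 0.99 for Prkcd and 0.74 for Nefm. At P14 it was -1.91 for Grp, -1.62 for Cartpt, -0.88 for Lypd1, -1.14 for Slc30a3, -1.34 for Six3, -1.39 for Lef1 and -0.53 for Nefm. The P21 values were -1.11 for Grp, -1.74 for Cartpt, -1.78 for Lypd1, -1.20 for Slc30a3, -0.48 for Lef1, 1.09 for Prkcd and -0.67 for Nefm. In adults they were -2.02 for Grp, -1.92 for Cartpt, -1.97 for Lypd1, -1.46 for Slc30a3, -1.23 for Six3, -1.41 for Lef1 and -0.48 for Nefm.

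Exposure differences were unequal over the 4 ages in 13 cases by moderated F tests of limma. In the amygdala the adjusted p was 4.05e-07 for Grp, 0.0098 for Cartpt, 0.000921 for Lypd1, 0.00111 for Slc30a3, 0.00236 for Six3, 0.00814 for Lef1 and 0.0011 for Nefm. In the hippocampus it was 0.000236 for Grp, 4.04e-05 for Cartpt, 7.75e-08 for Lypd1, 0.00447 for Six3, 8.59e-08 for Lef1 and 3.46e-06 for Nefm.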

How the results depend on the processing

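Counts of the 8 genes called in the amygdala at P14, P21 and P75 (7, 7 and 6) were unchanged without any 1 array and in each other limma fit run: quantile normalization over 78 arrays, trend and robust moderation, the features above the median level alone, array weights, the random control probe as a covariate, all 78 arrays, the 2 groups alone and the replicate block. The plain t-test with Bonferroni adjustment called 1, 2 and 0 genes there, and 0 in the hippocampus at P7, P14, P21 and P75. The authors' deposited tables, also from a t-test with Bonferroni correction, list more. They hold Cartpt and Six3 in amygdala at P14, Cartpt, Lypd1 and Slc30a3 at P21, Cartpt and Grp at P75, and Cartpt in hippocampus at P21. The reason for the gap was not tested. At P7 the amygdala count of 1 was 0 with the 2 groups alone, with all 78 arrays and with the plain t-test under either adjustment, and ran from 1 to 2 without 1 array (2 without control replicate 4). Hippocampal counts were 0 at P7, P21 and P75 with the random probe as a covariate, 4 at P14 and 3 at P75 with quantile normalization, 1 at P14 against control replicates 4 and 5 alone, and 3 at P75 with the 2 groups alone or the Benjamini-Hochberg t-test. Without 1 array they ran from 7 to 8 at P7, 2 to 3 at P14, 4 to 4 at P21 and 3 to 6 at P75, the 3 arising without control replicate 5 or exposed replicate 4. The difference between control regions at P21 was called for 4 genes after quantile normalization. Of signs, the random probe as a covariate turned 4 hippocampal differences: Grp to -0.10 and Lypd1 to 0.11 at P7, and Slc30a3 to -0.070 at P21 and -0.075 at P75. Each of these 4 was smaller than its SE (0.57, 0.54, 0.34 and 0.32). Quantile normalization turned Nefm between control regions to -0.16 at P21 and -0.11 at P75, and Slc30a3 between regions of exposed rats at P7 to -0.45. The cause was not tested. A mean over all features of a symbol was not run, since no gene had more than 1. Replicate numbers did not pair arrays, and with the replicate block the counts were 1, 7, 7 and 6 in the amygdala and 8, 2, 4 and 5 in the hippocampus at P7, P14, P21 and P75, as without it.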

Other observations

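Other peptide genes of the amygdala were lower in exposed rats alongside Grp and Cartpt. Of 15 listed neuropeptide and bombesin receptor genes 12 were measured, and of the 10 other than Grp and Cartpt 2 were higher and 6 lower in exposed amygdala at P14, 0 and 4 at P21, and 0 and 6 at P75. The shares of all features were 16.5%, 9.45% and 9.35% higher and 19.3%, 16% and 11.8% lower. At P7 none was called by limma. Their median difference was -0.62 on the log2 scale at P75, against -0.03 for all features. Cck, cholecystokinin, differed by -0.96, -0.98 and -1.22 at P14, P21 and P75, Npy, neuropeptide Y, by -0.67, -0.63 and -1.24, and Sst by -0.73, -0.53 and -0.97, all called lower by limma. In exposed hippocampus 4, 4, 5 and 5 of the 10 were higher at P7, P14, P21 and P75, and 0, 0, 3 and 1 lower, in comparisons that called 53.4%, 38.2%, 26.4% and 42.4% of all features. When the random probe was added to the fit, 3, 3, 0 and 0 of all 12 were called there. Cck there differed by 1.22, 0.69, 0.38 and 0.42, called higher at each age.

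Of 9 genes of Ly6 prototoxins and nicotinic receptors, the family and partners of Lypd1, 6 were measured. Of the 5 other than Lypd1, 1 was higher and 2 were lower in exposed amygdala at P14, 0 and 2 at P21, and 2 and 0 at P75, against 16.5%, 9.45% and 9.35% of all features higher and 19.3%, 16% and 11.8% lower. Their sum was 13286 to 15485 in exposed and 18172 to 18842 in control amygdala at P21, lower with no overlap, as at P14, and the groups overlapped at P7 and P75. Chrnb2, the beta2 nicotinic subunit, differed by -0.50, -0.48 and -0.27 at P14, P21 and P75, called lower at P14 and P21, and Chrna4, the alpha4 subunit that assembles with it, by -0.10, -0.19 and 0.10, not called.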
